A study of Mus musculus with 6 samples.

Results

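Ribosome biogenesis factors, the proteins that make and assemble ribosomes in the nucleolus, were examined in the colon epithelium of mice with the floxed *Zfp90* allele alone (*Zfp90*fl/fl) and of mice lacking *Zfp90* there (*Zfp90*ΔIEC). The members were a given list of 37 genes, grouped by function, and all 37 were found among the 52550 genes listed in each sample. All 37 passed the filter of at least 1 FPKM (a fragment count scaled by transcript length and by the size of the library) in at least 3 samples, as did 11564 genes in all.

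RNA-seq was available from 6 samples, 3 from each genotype, all from male C57BL/6 mice whose age the labels give as 6 to 8 weeks. In the *Zfp90*ΔIEC mice, Villin-cre removes the floxed part of *Zfp90*, a zinc finger protein, from intestinal epithelial cells, and the *Zfp90*fl/fl controls carry the floxed allele without Cre. Every mouse received azoxymethane (AOM), a colon carcinogen, at 10 mg/kg, and from 5 days later 3 cycles of dextran sulfate sodium (DSS), which injures the colon lining, at 2% in water for 7 days with 14 days of plain water after it. The colon was taken on day 80, so the mice were older when sampled, and its epithelium was released with EDTA and DTT, and no sample comes from untreated mice. Housing was by genotype after weaning, and an effect of the cage cannot be told apart from that of the deletion. The genotype field of *Zfp90*ΔIEC replicates 2 and 3 names another gene number, and both were placed by their titles.

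The deleted gene itself stood at 0.630, 0.490 and 0.569 FPKM in controls, and *Zfp90* in the *Zfp90*ΔIEC mice stood at 0.0846, 0.195 and 0.166 FPKM. The genotypes did not overlap, with a log2 ratio of means of -1.92 and an exact permutation p of 0.1, the smallest that 3 against 3 mice allow (two-sided). All 6 values of *Zfp90* lay below 1 FPKM, so the gene did not pass the filter and is not among the genes tested. Of 10 colon epithelium markers, all passed the filter, and their summed level was 11140 to 13670 FPKM in controls and 13270 to 17570 FPKM in *Zfp90*ΔIEC. *Epcam*, for example, lay between 553.5 and 608.5 FPKM in the 6 mice, and 12 stromal markers summed to between 0.660 and 1.33 FPKM.

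Ribosomes are built in the nucleolus, where RNA polymerase I transcribes a long precursor of the ribosomal RNAs. Small nucleolar ribonucleoproteins (snoRNPs) modify this precursor, and the small subunit processome and the large subunit factors then fold and cut it while ribosomal proteins are added. Dividing cells at the base of the colon crypt need many new ribosomes, and *Myc*, which is often raised in colon tumors, is a known activator of these genes.

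No member differed between the genotypes after adjustment over all genes tested (limma on log2(FPKM + 1), Benjamini-Hochberg, 0 of 37 with an adjusted p under 0.05). Among all genes tested, 23 of 11564 passed, or 0.199%. At an unadjusted p under 0.05, 6 of 37 members passed, or 16.2%, beside 14.6% of all genes, and no count-based test was run on these values. Of those 6, *Rrp12*, *Wdr74*, *Nolc1*, *Nop56* and *Gnl3* were higher in *Zfp90*ΔIEC, or 13.5% of members beside 6.56% of all genes, and *Npm1* was lower, or 2.70% beside 8.09%. The 3 mice of each genotype did not overlap for 9 members, or 24.3%, beside 21.3% of all genes. Of these 9, 7 were higher in *Zfp90*ΔIEC, or 18.9% beside 8.73% of all genes, and 2 were lower, or 5.41% beside 12.6%. The totals lay near those of all genes, while by direction the share of members was above that of all genes on the higher side and below it on the lower side, a split that was not tested.

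The members as a group stayed close to the same level. The log2 fold change (*Zfp90*ΔIEC minus *Zfp90*fl/fl) was above 0 for 20 members and below 0 for 17, with a median of 0.01, beside -0.02 over all genes tested. For 25 members, or 67.6%, it was smaller than 0.1 in either direction, as it was for 55.2% of all genes. The 95% interval of the difference lay within ±0.5 on the log2 scale for 36 of 37 members, the exception being *Wdr74*, and for 83.9% of all genes. Without the filter the upper limits of *Rrp12* and *Mrto4* also passed 0.5, at 0.502 and 0.515. The 1 FPKM added before the logarithm makes differences of low genes smaller. With 0.1 added instead, the log2 fold change of *Rrp12* was 0.41 beside 0.32. Summed over the 37 members, the level was 504.4, 504.9 and 498.1 FPKM in the *Zfp90*fl/fl mice and 498.0, 523.9 and 484.1 FPKM in the *Zfp90*ΔIEC mice. The highest and the lowest sum were both *Zfp90*ΔIEC mice, and the means of 502.5 ± 3.80 and 502.0 ± 20.2 FPKM (SD, n = 3 each) gave a ratio of 0.999. As these are bulk samples, fewer cells of a type and less RNA per cell cannot be told apart.

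**Figure D1:**
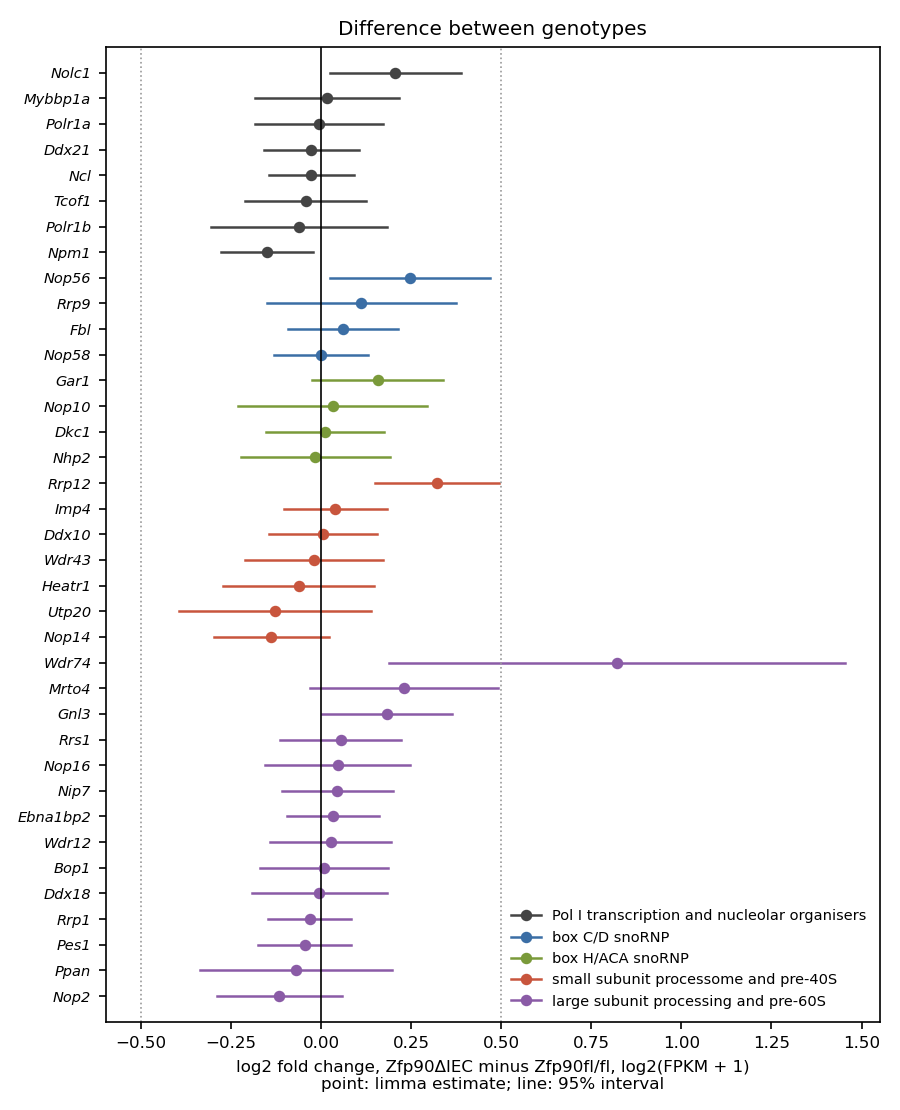
Log2 fold change of each member between *Zfp90*ΔIEC and *Zfp90*fl/fl mice (x axis, log2(FPKM + 1)), with 1 gene per line, coloured by role. Points are limma estimates, lines are 95% intervals and dotted lines mark ±0.5. All intervals but that of *Wdr74* lie within the dotted lines.

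The 37 genes spanned a wide range of levels. Their mean over the 6 mice ran from 1.03 FPKM for *Wdr12* to 104.3 FPKM for *Npm1*, with a median of 10.5 FPKM, and 26 of 37 lay above the median of all genes tested. The spread between mice of 1 genotype was small, with a median SD of 0.09 on the log2 scale, beside 0.10 for all genes.

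**Figure D2:**
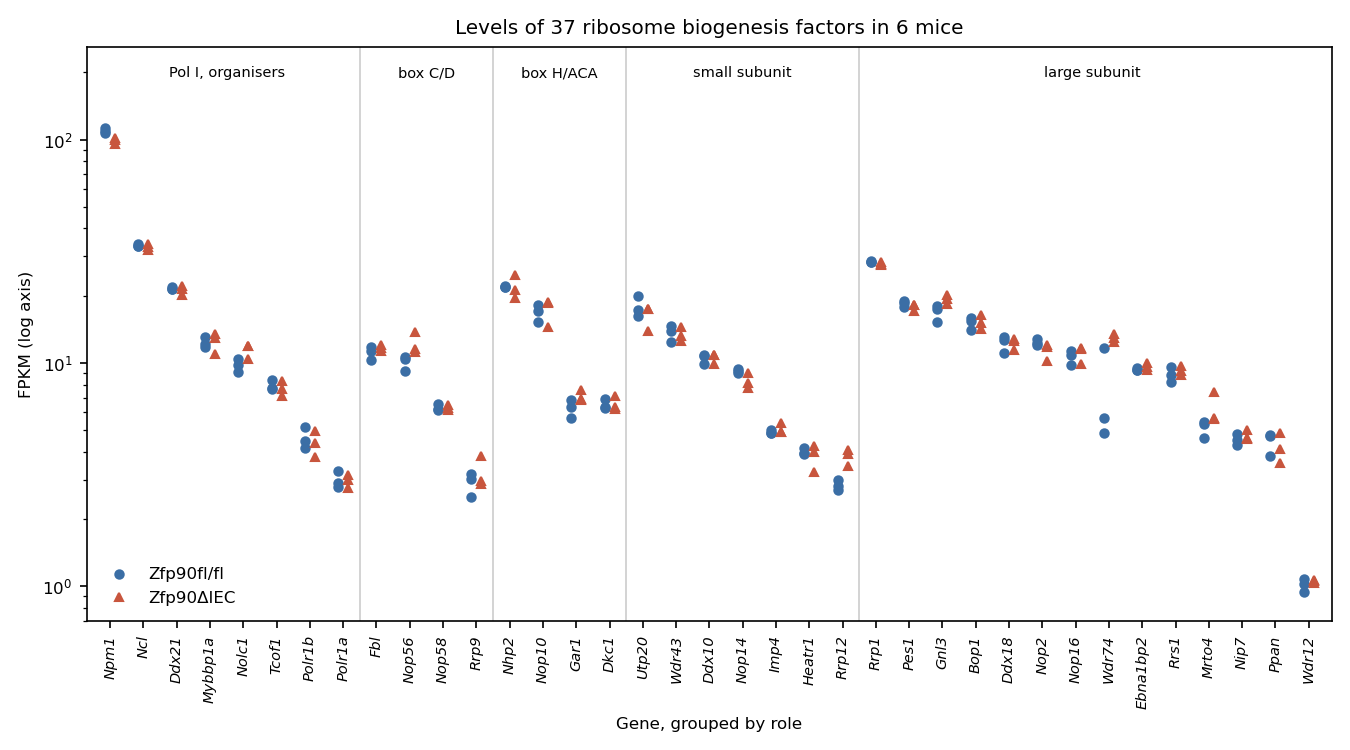
FPKM of the 37 members in each mouse on a log axis, grouped by role and ordered by mean level within a role. Circles are the 3 *Zfp90*fl/fl mice and triangles the 3 *Zfp90*ΔIEC mice. For most genes the symbols of both genotypes lie over each other, and *Wdr74* shows the widest gap.

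The 8 genes of RNA polymerase I transcription and nucleolar organisation had a median log2 fold change of -0.03, with 2 above 0 and 6 below 0. *Npm1*, the nucleolar chaperone nucleophosmin on chromosome 11, had the highest level of all members. It was measured at 109.1, 113.2 and 107.1 FPKM in controls and at 95.2, 102.2 and 99.2 FPKM in the *Zfp90*ΔIEC mice. All 3 *Zfp90*ΔIEC values lay below all 3 control values, with a log2 fold change of -0.15 (SE 0.0542, limma adjusted p = 0.281). *Nolc1*, a chaperone of snoRNPs, was measured at 10.44, 9.11 and 9.79 FPKM in controls and at 11.9, 11.9 and 10.45 FPKM in *Zfp90*ΔIEC. Its *Zfp90*ΔIEC values all lay above the controls, the nearest pair by very little, with a log2 fold change of 0.21 (SE 0.0767, limma adjusted p = 0.297).

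The other genes of this group overlapped between the genotypes. *Ncl*, or nucleolin, which binds the rRNA precursor, had means of 33.7 and 33.0 FPKM (*Zfp90*fl/fl and *Zfp90*ΔIEC). *Ddx21*, a nucleolar RNA helicase, had means of 21.6 and 21.2 FPKM, and *Mybbp1a*, a nucleolar regulator of transcription, 12.3 and 12.5 FPKM. *Tcof1*, or treacle, which helps polymerase I at the ribosomal genes, had means of 7.93 and 7.67 FPKM. The 2 largest subunits of polymerase I were lower in level, with means of 2.98 and 2.96 FPKM for *Polr1a* and 4.60 and 4.37 FPKM for *Polr1b*.

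Box C/D snoRNPs guide methylation of the ribosomal RNA, and their 4 genes had a median log2 fold change of 0.09. *Nop56*, a core scaffold protein, was measured at 9.19, 10.4 and 10.6 FPKM in controls and at 11.5, 13.8 and 11.2 FPKM in *Zfp90*ΔIEC. All *Zfp90*ΔIEC values were above the controls, with a log2 fold change of 0.25 (SE 0.0935, limma adjusted p = 0.305). Its partner *Nop58* had means of 6.30 and 6.30 FPKM with a log2 fold change of -0.0003 (95% interval -0.13 to 0.13), so that the ratio of *Nop56* to *Nop58* was 1.5, 1.67 and 1.62 in controls and 1.87, 2.13 and 1.79 in *Zfp90*ΔIEC. The ratio did not overlap between genotypes, at the smallest p of the exact permutation test (p = 0.1, adjusted p = 0.55 over the 11 ratios between partner genes that were computed). In the annotation *Nop56* overlaps *Idh3b* on the opposite strand. Of the 37 members, 10 overlap a protein-coding gene in this way, also *Gnl3*, and since the counting was not stated to use strand their levels are uncertain to that extent. *Fbl*, or fibrillarin, the methyltransferase, was measured at 11.8, 10.3 and 11.3 FPKM in controls and at 11.3, 11.98 and 11.7 FPKM in *Zfp90*ΔIEC, which overlapped. *Rrp9*, a protein of the U3 snoRNP, had means of 2.90 and 3.22 FPKM.

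Box H/ACA snoRNPs convert uridines to pseudouridines, and their 4 genes had a median log2 fold change of 0.02. The enzyme *Dkc1*, or dyskerin, had means of 6.505 and 6.56 FPKM. Its most abundant partner, *Nhp2*, was measured at 21.8, 22.2 and 21.9 FPKM in controls and at 21.3, 24.7 and 19.5 FPKM in *Zfp90*ΔIEC, where the mice lay on both sides of the controls. *Nop10*, the smallest partner, had means of 16.8 and 17.3 FPKM. *Gar1*, which completes the particle, did not overlap, at 6.79, 5.66 and 6.34 FPKM in controls and 6.86, 7.54 and 6.88 FPKM in *Zfp90*ΔIEC. Its log2 fold change of 0.16 (SE 0.0767) did not pass (limma adjusted p = 0.405).

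The 7 small subunit genes had a median log2 fold change of -0.02 and ran in both directions. *Rrp12*, needed for maturation and export of the small subunit, lies on chromosome 19 and had the smallest p of all members. It was measured at 2.82, 2.71 and 3.003 FPKM in controls and at 4.07, 3.90 and 3.46 FPKM in *Zfp90*ΔIEC. All *Zfp90*ΔIEC values were above the controls, the ratio of means was 1.34, and the log2 fold change was 0.32 (SE 0.0730, limma adjusted p = 0.127). *Nop14*, a processome subunit, was measured at 9.43, 9.05 and 9.17 FPKM in controls and at 9.03, 8.10 and 7.76 FPKM in *Zfp90*ΔIEC. Its *Zfp90*ΔIEC values were all below the controls, with 1 mouse very near them, and the log2 fold change was -0.14 (SE 0.0672, limma adjusted p = 0.403).

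The remaining small subunit genes overlapped. *Utp20*, a large scaffold of the processome, was the most abundant, at 17.3, 20.0 and 16.2 FPKM in controls and at 17.5, 17.4 and 13.9 FPKM in *Zfp90*ΔIEC, with a log2 fold change of -0.13 (95% interval -0.39 to 0.14). *Wdr43* and *Heatr1*, processome subunits that also act in rRNA transcription, had means of 13.7 and 13.4 FPKM and of 4.01 and 3.82 FPKM. The helicase *Ddx10* had means of 10.5 and 10.5 FPKM and *Imp4*, which binds the U3 snoRNA, 4.91 and 5.08 FPKM.

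The 14 large subunit genes had a median log2 fold change of 0.03, with 9 above 0 and 5 below 0. *Wdr74*, a factor of early large subunit particles on chromosome 19, had the largest difference of all members. It was measured at 4.84, 11.7 and 5.67 FPKM in controls and at 12.5, 12.99 and 13.4 FPKM in *Zfp90*ΔIEC. The *Zfp90*ΔIEC mice lay close together and above all controls, while control replicate 2 lay near them and apart from the other controls. Its ratio of means was 1.75 and its log2 fold change 0.82 (SE 0.267, limma adjusted p = 0.242). Without control replicate 2 the log2 fold change was 1.16 and passed (limma adjusted p = 0.018, with a range of 0.018 to 0.47 over all alternatives), and no other member had an adjusted p under 0.05 in any alternative.

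*Gnl3*, or nucleostemin, a GTPase found in stem and tumor cells, was measured at 17.5, 15.2 and 17.9 FPKM in controls and at 19.2, 20.1 and 18.4 FPKM in *Zfp90*ΔIEC. All *Zfp90*ΔIEC values were above the controls, with a log2 fold change of 0.18 (SE 0.0764, limma adjusted p = 0.335). *Mrto4*, which holds the place of a ribosomal stalk protein during assembly, was measured at 4.63, 5.46 and 5.35 FPKM in controls and at 5.62, 7.42 and 5.69 FPKM in *Zfp90*ΔIEC. These did not overlap either, though 2 of the 3 *Zfp90*ΔIEC mice lay near the controls, with a log2 fold change of 0.23 (SE 0.110, limma adjusted p = 0.399).

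**Figure D3:**
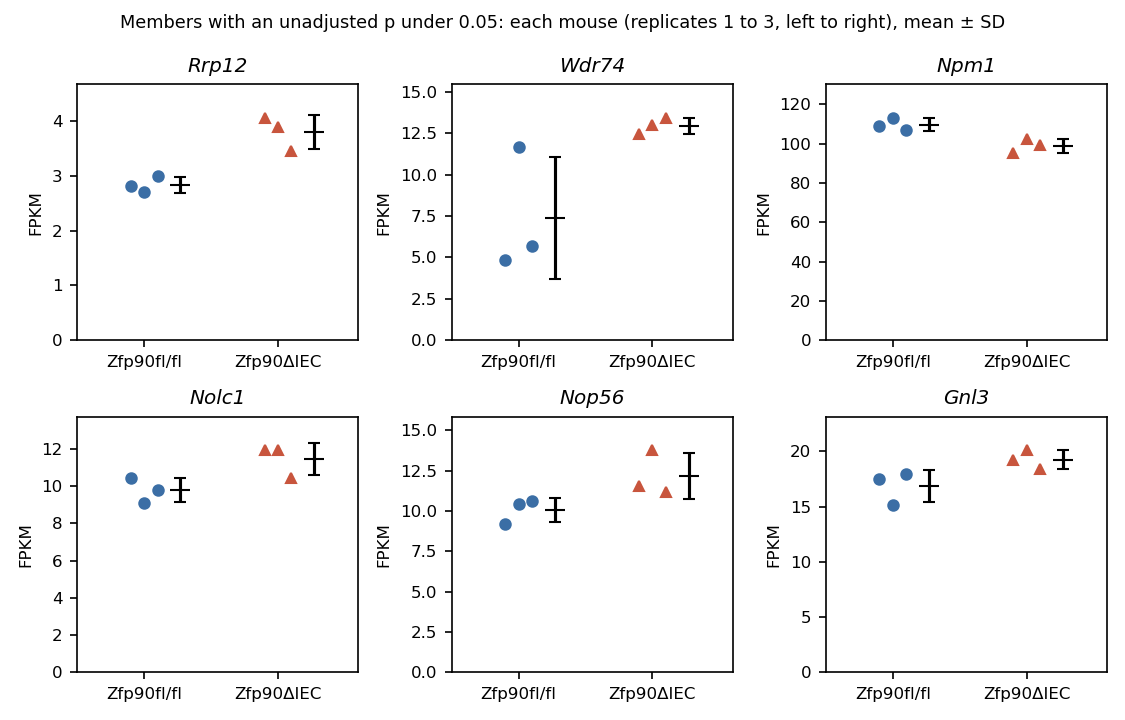
FPKM in each mouse for the 6 members with an unadjusted p under 0.05, with axes from 0. Circles are *Zfp90*fl/fl and triangles *Zfp90*ΔIEC mice, and the bars give the mean ± SD (n = 3). The genotypes do not overlap in any panel, and *Wdr74* shows 1 control at 11.7 FPKM near the *Zfp90*ΔIEC mice.

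*Pes1*, *Bop1* and *Wdr12* form 1 complex that is needed to process the large subunit rRNA. *Pes1* had means of 18.4 and 17.8 FPKM and *Bop1* 15.2 and 15.2 FPKM, while *Wdr12* had 1.01 and 1.05 FPKM. The ratio of *Wdr12* to *Bop1* was 0.0670 ± 0.0009 in controls and 0.0691 ± 0.0042 in *Zfp90*ΔIEC (SD, n = 3 each, exact permutation p = 0.5). The listed level of *Wdr12* was thus low beside its partners in both genotypes. In the annotation *Pes1*, *Bop1* and *Wdr12* each overlap a protein-coding gene on the opposite strand, so levels compared between them are uncertain to that extent. The most abundant gene of the group, *Rrp1*, which acts in large subunit rRNA processing, was measured at 28.4, 28.7 and 28.2 FPKM in controls and at 27.7, 28.3 and 27.4 FPKM in *Zfp90*ΔIEC. These overlapped, with a 95% interval of -0.15 to 0.08 on the log2 scale. *Nop2*, an rRNA methyltransferase, had the most negative difference of the group, with means of 12.3 and 11.3 FPKM (log2 fold change -0.12, 95% interval -0.29 to 0.06). The assembly factors *Nop16*, *Rrs1*, *Ddx18*, *Nip7*, *Ebna1bp2* and *Ppan* overlapped between genotypes, with log2 fold changes from -0.07 for *Ppan* to 0.05 for *Rrs1*. *Nip7* lies 0.63 Mb from *Zfp90* on chromosome 8 and had means of 4.55 and 4.72 FPKM.

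Among single mice, *Zfp90*ΔIEC replicate 2 had the highest value for 14 of 37 members, while *Zfp90*ΔIEC replicate 3 had the lowest for 13 and control replicate 2 the lowest for 12. Without *Zfp90*ΔIEC replicate 3, 28 members had a difference above 0, and without *Zfp90*ΔIEC replicate 2, 16 did. The 6 members with an unadjusted p under 0.05 became 2 without control replicate 2, 3 without control replicate 1 or *Zfp90*ΔIEC replicate 2, and 4 without any other mouse. Another scaling moved the balance as well, to 24 above and 13 below 0 with median ratio scaling and to 23 and 14 with quantile normalization.

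Beyond the members, a list of 124 further ribosome biogenesis genes was used, of which 123 were found and 122 tested. None passed after adjustment (0 of 122, limma). At an unadjusted p under 0.05, 4 of 122 passed, or 3.28%, beside 14.6% of all genes, and all of them were lower in *Zfp90*ΔIEC, where 8.09% of all genes were: *Nob1*, the nuclease that makes the final cut of the small subunit rRNA, and the large subunit factors *Nop53*, *Nsa2* and *Zfp622*. *Nob1* was measured at 5.82, 5.76 and 5.55 FPKM in controls and at 4.09, 5.01 and 4.71 FPKM in *Zfp90*ΔIEC (log2 fold change -0.26, SE 0.0753, limma adjusted p = 0.195). *Nop53* was measured at 28.4, 28.7 and 26.7 FPKM in controls and at 22.5, 24.5 and 23.3 FPKM in *Zfp90*ΔIEC (log2 fold change -0.24, SE 0.0584, limma adjusted p = 0.134). The genotypes did not overlap for 15 of 122, or 12.3%, beside 21.3% of all genes. The list had 48 differences above 0 and 74 below 0, with a median of -0.02, the same to this precision as over all genes.

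The largest differences in this list were not past the test. *Rsl24d1*, a large subunit factor, had means of 18.1 and 14.3 FPKM (log2 fold change -0.35, limma adjusted p = 0.405). *Exosc6*, a subunit of the RNA exosome, was measured at 7.97, 0.915 and 1.44 FPKM in controls and at 6.09, 5.78 and 5.75 FPKM in *Zfp90*ΔIEC, so that control replicate 1 lay above all others and the other controls far below. Its log2 fold change was 0.98 (SE 0.528, limma adjusted p = 0.445), and without that mouse it was 1.67 and passed (adjusted p = 0.0223). The next largest positive differences, of *C1d*, an exosome cofactor, and *Pwp2*, a processome subunit, were 0.18 and 0.15 on the log2 scale, and both genes overlapped between genotypes.

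*Myc* was measured at 6.10, 5.55 and 5.82 FPKM in controls and at 6.33, 6.40 and 5.68 FPKM in *Zfp90*ΔIEC. The genotypes overlapped, with a log2 fold change of 0.06 (95% interval -0.09 to 0.22, limma adjusted p = 0.704). Of 10 genes of the *Myc* network tested, none passed after adjustment (limma). At an unadjusted p under 0.05, 1 passed, or 10.0%, which was below the 14.6% of all genes. This was *Mxd1*, which competes with *Myc* for *Max*, at 26.8, 28.8 and 28.4 FPKM in controls and 29.1, 37.2 and 40.1 FPKM in *Zfp90*ΔIEC (log2 fold change 0.32, SE 0.116, limma adjusted p = 0.28).

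The letters that *Myc* and *Max* bind, the E-box CACGTG (the same on both strands), were searched in RefSeq promoter windows of GRCm38.p6, which run from 250 bases before to 50 bases after a start site. Windows were matched by symbol for 31 of 37 members, and 6 of 31, or 19.4%, held the E-box, beside 12.05% of 8418 tested genes with a window and 8.09% of all 27025 genes with a window. No window was matched for *Rrs1*, *Bop1*, *Npm1*, *Rrp12*, *Tcof1* and *Fbl*, so these were not searched. Among the wider list, 18.3% of 104 genes held the E-box. The 6 stretches are shown on the strand of the gene, with the E-box in capitals, to let the position of the motif be compared.
Imp4: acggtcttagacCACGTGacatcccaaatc
Nop2: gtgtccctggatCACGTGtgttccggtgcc
Pes1: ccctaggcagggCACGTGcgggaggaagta
Wdr43: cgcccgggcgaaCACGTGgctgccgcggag
Utp20: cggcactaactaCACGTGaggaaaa
Mybbp1a: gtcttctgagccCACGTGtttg
The stretch of *Imp4* is at chr1:34439696-34439725 on the plus strand, with the E-box 121 bases before the start site, and that of *Nop2* at chr6:125131811-125131840 on the plus strand, 60 bases before it. In the other 4 the E-box begins after the start site, with the stretch of *Pes1* at chr11:3963965-3963994, *Wdr43* at chr17:71616220-71616249 and *Mybbp1a* at chr11:72441355-72441376 on the plus strand and *Utp20* at chr10:88826765-88826789 on the minus strand. The log2 fold changes of these 6 genes ran from -0.13 for *Utp20* to 0.04 for *Imp4*. None of the 6 was among the members with an unadjusted p under 0.05 (limma), of which *Rrp12* and *Npm1* could not be searched. A match of these letters is a description of the window and not a measured binding site.

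Members were also often hosts of small nucleolar RNA genes, which are made from introns. In the GENCODE M21 annotation of GRCm38, 7 of 37 members (18.9%) held at least 1 snoRNA gene on their own strand, beside 1.80% of 10348 tested protein-coding genes. Of the wider list only 3 of 122 did, so the high share was not shared by the other ribosome biogenesis genes examined. The 7 members were *Ncl*, *Nop56*, *Nop58*, *Dkc1*, *Wdr43*, *Gnl3* and *Ppan*, with 21 snoRNA genes in all, and *Nop56* held the most, with 5. Their log2 fold changes ran from -0.07 to 0.25 with a median of -0.0003, beside 0.01 for the 30 members without one.

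The levels of cycling-cell markers separated the genotypes. All 13 of 13 markers were higher in *Zfp90*ΔIEC without overlap, beside 8.73% of all genes. All 13 had an unadjusted p under 0.05 (limma), beside 6.56% of all genes on the higher side. Their median log2 fold change was 0.36, and their summed level was 150.1 to 162.3 FPKM in controls and 191.2 to 210.7 FPKM in *Zfp90*ΔIEC. After adjustment 1 of 13 passed: *Mki67*, the gene of the proliferation antigen Ki-67, was measured at 22.6, 21.8 and 22.6 FPKM in controls and at 29.1, 30.2 and 30.7 FPKM in *Zfp90*ΔIEC (log2 fold change 0.41, SE 0.0512, limma adjusted p = 0.0478). It missed the threshold under 10 of 11 alternatives, with limma adjusted p up to 0.163. The markers include *Pcna*, and the paper reports the other direction for its protein, with fewer PCNA-positive tumor cells in *Zfp90*ΔIEC. That was staining within tumors, while the values here are RNA of bulk epithelium. The summed level of all members did not separate the genotypes in the mice measured here, while sums by role ran in both directions. Those of the polymerase I and nucleolar organisation genes were lower in *Zfp90*ΔIEC, the nearest pair by very little. They were 187.4 to 198.6 FPKM beside 198.7 to 205.3 FPKM in controls. Box C/D sums were higher, at 31.8 to 36.1 beside 29.5 to 31.6 FPKM. Large subunit sums were also higher, at 156.9 to 168.4 beside 154.3 to 155.5 FPKM. Box H/ACA and small subunit sums overlapped, and sums by role were not tested. A sum weighs abundant genes most, such as *Npm1* in the polymerase I group. With genes weighed equally as centred log2 values, the polymerase I means overlapped, at -0.0277 to 0.0699 in controls and -0.0898 to 0.0425 in *Zfp90*ΔIEC. Box C/D means also overlapped, while large subunit means, of a group that holds *Wdr74*, did not.

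Markers of other cells separated the genotypes in part. The 7 markers of crypt base and progenitor cells all overlapped, with 4 lower and 3 higher in mean in *Zfp90*ΔIEC. Their sums were 38.3 to 45.55 FPKM in controls and 38.19 to 48.21 FPKM in *Zfp90*ΔIEC. Of 18 leukocyte markers, 18 had a lower mean in *Zfp90*ΔIEC and 12 did not overlap. Among all genes tested, 12.6% were lower without overlap. Only 3 of the 18 markers passed the filter, 1 of them without overlap, so that share is not matched in level to the 18. *S100a8* and *S100a9* were listed at 0 in all *Zfp90*ΔIEC mice. The summed level of the 18 markers was 33.2 to 56.6 FPKM in controls and 26.2 to 38.3 FPKM in *Zfp90*ΔIEC, of which *Ly6g* made up most. Without *Ly6g*, left out after its values were seen, the sums of the other 17 markers were 9.22 to 11.9 FPKM in controls and 3.81 to 5.40 FPKM in *Zfp90*ΔIEC, with no overlap. Of the 10 colon epithelium markers, none passed after adjustment and 3 passed at an unadjusted p under 0.05 (limma), all higher in *Zfp90*ΔIEC without overlap. These were the anion exchanger *Slc26a3*, the carbonic anhydrase *Car1* and the keratin *Krt18*, with ratios of means of 1.44, 1.67 and 1.16. On the higher side, 6.56% of all genes had an unadjusted p under 0.05 (limma). Across the 10 colon epithelium markers the log2 fold change was above 0 for 5 and below 0 for 5, with a median of 0.05. All 6 goblet cell markers had a higher mean in *Zfp90*ΔIEC, with sums of 1888 to 2317 and 2512 to 3368 FPKM. The part of cycling, leukocyte, colon epithelium and goblet cell markers in the members' differences was not tested.

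**Figure D4:**
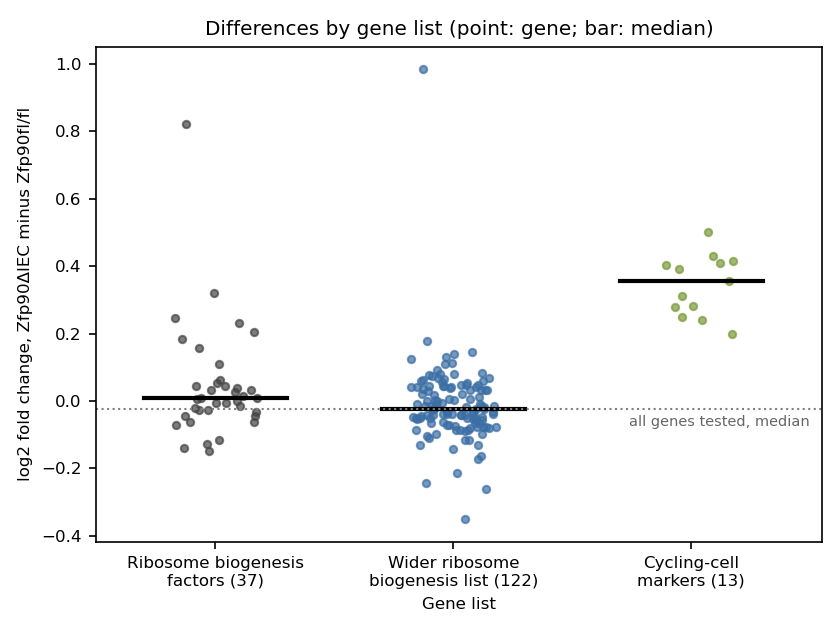
Log2 fold change between *Zfp90*ΔIEC and *Zfp90*fl/fl mice for each gene (points) of the 37 members, the 122 tested genes of the wider list and 13 cycling-cell markers, with the median of each list as a bar and the median of all genes tested as a dotted line. The members and the wider list lie around 0 and the cycling markers lie between 0.20 and 0.50.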

How the data were processed

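The files the authors deposited hold 1 value per gene and sample, taken to be FPKM from the study's methods and the values, as the headers name no unit. The methods name TopHat and Cuffdiff with a human genome, while the submitters' processing notes name STAR 2.5, Cuffnorm, DESeq 1.22.1 and build mm9. The methods also give another age and DSS dose than the labels, whose values are used here. The rows carry mouse Ensembl identifiers, and 52403 of 52550 matched a symbol in GENCODE M21. Values were tested as log2(FPKM + 1) with limma 3.58.1 (intensity trend, R 4.3.3) over the 11564 genes that reached 1 FPKM in 3 or more samples, with Benjamini-Hochberg adjustment and genotype as the only term. Depth is not stated. Steps in low values gave an estimate of 25.85 to 28.85 M fragments per sample, with 56.0% to 60.5% of values within 0.1 of a whole step, so fragments were not recovered. The labels do not say which mice share a litter, so p-values measure the spread between these samples.

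The members and all lists were chosen with earlier results of these data known. Genes named outside the members were *Zfp90*, *Myc* and the wider list's 3 largest positive and 3 largest negative differences, and *Mxd1*, *Nsa2*, *Zfp622* and the single markers were chosen after their values were seen. Per-mouse values are given for members with an unadjusted p under 0.05, for the most abundant of each role and, chosen after values were seen, for the other members without overlap. Fits were tested on simulated data. Alternatives were a pseudocount of 0.1, no filter, median ratio scaling, quantile normalization, a replicate block, leaving out each sample and an unadjusted p. Columns of other samples were not present. *Riok2* of the wider list was not analysed here.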

Additional observations from a re-analysis of the deposited data

How the results depend on the processing

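The count of genes past the adjusted threshold was 23, and it was 13 with a pseudocount of 0.1, 15 without the filter, 1694 at an unadjusted p under 0.05 and 10 to 21 when 1 mouse was left out, lowest without *Zfp90*fl/fl replicate 2. The members passing numbered 0, or 6 at an unadjusted p, and 0 to 1 when 1 mouse was left out, the 1 being *Wdr74* without *Zfp90*fl/fl replicate 2. The wider list passing numbered 0, or 4 at an unadjusted p, and 0 to 1 when 1 mouse was left out, the 1 being *Exosc6* without *Zfp90*fl/fl replicate 1. The median of the members moved between -0.0198 and 0.0318 when 1 mouse was left out, by less than the spread between mice.

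Differences near 0 turned in direction in 16 of 37 members. So did that of *C1d*, a gene of the wider list, whose log2 fold change with all mice was 0.18. Median ratio scaling gave 0.0096 for *Polr1a*, 0.0186 for *Nop58*, 0.0045 for *Nhp2* and 0.0148 for *Ddx18*, and quantile normalization gave 0.0140 for *Polr1a*, 0.0140 for *Nop58* and 0.0055 for *Ddx18*. Over the fits that left out 1 mouse, log2 fold changes ran from -0.045 to 0.0446 for *Polr1a*, -0.1372 to 0.0172 for *Polr1b*, -0.0929 to 0.0026 for *Tcof1*, -0.0406 to 0.0959 for *Mybbp1a*, -0.0572 to 0.0087 for *Ddx21*, -0.0179 to 0.0241 for *Nop58*, -0.0396 to 0.0471 for *Dkc1*, -0.1066 to 0.0587 for *Nhp2*, -0.0318 to 0.1448 for *Nop10*, -0.1254 to 0.0261 for *Heatr1*, -0.0813 to 0.0292 for *Wdr43*, -0.0308 to 0.0439 for *Ddx10*, -0.044 to 0.0544 for *Bop1*, -0.0101 to 0.1156 for *Nop16*, -0.0738 to 0.0388 for *Ddx18*, -0.1608 to 0.0165 for *Ppan* and -0.1854 to 0.392 for *C1d*. The cause was not tested.

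The replicate numbers were checked for pairing. Same-numbered mice had correlations of their deviations from the group means of 0.194, 0.11 and 0.0782, not all over 0.1, so they were taken to share only a number, though 6 of 6 mice correlated best with their own number, a hint from the data and not the design. With the replicate block 47 genes passed, with 0 members and 0 wider list genes among them. Depth was only estimated, so no counting error can be given for low genes such as *Wdr12*.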

Other observations

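Among genes of ribosome biogenesis, 3 were chosen after their values were seen for a wide spread among the *Zfp90*fl/fl mice beside a narrow one among the *Zfp90*ΔIEC mice. *Wdr74* had an SD of 3.72 FPKM in controls and 0.496 FPKM in *Zfp90*ΔIEC (n = 3 each). *Exosc6* had SDs of 3.93 and 0.185 FPKM. *C1d*, measured at 7.88, 3.39 and 8.77 FPKM in controls and at 7.05, 7.08 and 7.46 FPKM in *Zfp90*ΔIEC, had SDs of 2.88 and 0.227 FPKM. The mouse apart from the other controls was replicate 2 for *Wdr74* and *C1d*, high for the former and low for the latter, and replicate 1, high, for *Exosc6*. Whether the spread itself differs between the genotypes was not tested.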
